A study of Mus musculus with 7 samples.

Results

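The genes described here are the enzymes, regulators and desaturases with which cells make cholesterol and fatty acids. They were chosen by symbol, and all 36 listed symbols were found among the 54309 genes of the deposited table. They fall into 18 enzymes that lead from acetyl-CoA to cholesterol, 6 genes that control or carry sterol, and 12 genes of fatty acid synthesis, desaturation and elongation. The samples were lumbar (L4 to L6) dorsal root ganglia, which hold the cell bodies of sensory neurons, from C57bl/6 mice labelled male and aged 6 to 8 weeks. Every animal had a sciatic nerve injury 72 h before the ganglia were taken. The injury and the dissection fell at Zeitgeber time (ZT, hours from lights on) 20 in 4 samples and at ZT8 in 3 samples, and no uninjured ganglia were compared here. Cells were released with Dispase II, Collagenase Type II and papain and neurons were enriched on a gradient of albumin before RNA extraction. The title of the series concerns clock time and axon regeneration, and the comparison asks which transcripts differed with the time of day. The labels do not say whether a sample came from 1 animal or from several pooled, so the p-values measure only the spread between these samples.

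Cholesterol is built in the cytosol and endoplasmic reticulum from acetyl-CoA through mevalonate, isoprenoid diphosphates, squalene and lanosterol. Fatty acids are built from the same acetyl-CoA by carboxylation, chain synthesis, elongation and the insertion of double bonds. Both pathways are controlled by the transcription factors SREBP-1 and SREBP-2, which SCAP escorts out of the endoplasmic reticulum when sterol is low and INSIG proteins hold back when it is high. In nervous tissue these lipids supply the membranes of growing axons and of myelin, and glia make much of the cholesterol.

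Values are TPM, transcript abundances corrected for length and scaled to the same sum in every library, which leave the sequencing depth unknown. Where every library is given, values follow the order of the replicate numbers. Genes above 0 TPM numbered 24192 to 25238 per library at ZT20 and 18297 to 22973 at ZT8, and the lowest number was in ZT8 replicate 2. All libraries are labelled male, but the summed TPM of Uty, Kdm5d, Eif2s3y and Ddx3y, all Y-linked, was 0.0162 and 0.00868 in ZT20 replicates 3 and 4, against 33.1 to 84.6 in the other 5 libraries. For Xist, the RNA of the silenced female X, ZT20 replicates 2, 3 and 4 had 1.08, 2.21 and 2.30 TPM, and the other libraries had 0 to 0.00467 TPM. Differences are given as ZT20 minus ZT8 in log2(TPM + 1), which understates the change of low genes, with 95% intervals from limma and Benjamini-Hochberg adjustment over the 14800 genes that averaged at least 1 TPM. "Rose" and "higher" are used of a gene only where the adjusted p-value was under 0.05. Of all tested genes 16.4% passed that threshold, 12.8% higher and 3.61% lower at ZT20, and the median difference of all tested genes was 0.23. With median-ratio scaling the median became 0.014, and the share of calls that were higher went from 78.1% to 46.4%; quantile normalization gave 0.0046 and 55.7%.

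The cell types in the libraries were read from marker lists. The summed TPM of 10 neuronal markers was 17800 to 22890 at ZT20 and 14010 to 21290 at ZT8. Of these 10, Elavl4, a neuronal RNA-binding protein, was higher (277, 375 and 221 TPM at ZT8 against 565 to 622 TPM at ZT20, a difference of 1.08, limma adjusted p = 0.00735), and 8 had positive differences, with a median of 0.30. Satellite glia, which wrap the neuron bodies, were still present, with a sum over 8 markers of 1299 to 1679 TPM at ZT20 and 2056 to 2262 TPM at ZT8. Fabp7, a fatty acid binding protein of these glia, was lower at ZT20 (limma adjusted p = 0.0327), and the ranges of the sums did not overlap. The 8 Schwann cell myelin markers summed to 1012 to 1138 and 814 to 1173 TPM, and 0 of 7 tested passed by limma, with 1 at an unadjusted p under 0.05. Adipocyte markers, listed because fat cells make fatty acids strongly, summed to 1.40 to 3.53 TPM at ZT20 and 0 to 6.02 TPM at ZT8 over 9 genes, and Lep was listed at 0 in every library. Sums of macrophage markers were 339 to 683 TPM at ZT20 and 367 to 840 TPM at ZT8 (1 of 9 tested lower), of fibroblast markers 73.1 to 106 and 82.7 to 194 TPM (0 of 4 by limma, 1 at an unadjusted p under 0.05), of endothelial markers 101 to 115 and 133 to 191 TPM (1 of 2 lower) and of plasma cell markers 108 to 296 and 364 to 708 TPM (1 of 4 lower). In such bulk samples fewer cells of a type and less RNA per cell cannot be told apart. The part of the glial shift in the results below was not tested. A fit with a neuron-minus-glia marker score as covariate is given below, but that score did not overlap between the groups.

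Of the 11 fatty acid genes tested, 6 rose (54.5%) and 0 fell, and of 18 sterol enzymes 2 rose (11.1%) and 0 fell. Among the 6 regulators 1 rose. Over all 35 tested members, 9 passed (25.7%) against 16.4% of all tested genes, and all 9 were higher at ZT20 (12.8% of all tested genes). The median log2 difference was 0.54 for the fatty acid genes, 0.57 for the regulators and 0.11 for the sterol enzymes, beside 0.23 for all tested genes; with median-ratio scaling the sterol median turned to −0.14 and the fatty acid median was 0.29, and with the correction for transcript length and GC content described below they were −0.12 and 0.067. The groups did not overlap for 11 members that were above and 3 that were below at ZT20, a pattern found in 24.5% and 8.72% of tested genes and in 33.2% in either direction. Under median-ratio scaling 6 members were higher and 4 lower (Elovl1, Insig2, Mvk and Pmvk), where 1095 of 14757 genes in all were higher and 1265 lower (16.0% called). After each library was corrected for its trend with transcript length and GC content only Scd2 and Idi1 of the members passed, 1 fatty acid gene and 1 sterol enzyme, and without ZT20 replicates 3 and 4 limma called 0 genes of any kind, with 2378 at an unadjusted p under 0.05. The difference between the gene groups itself was not tested.

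**Figure D1:**
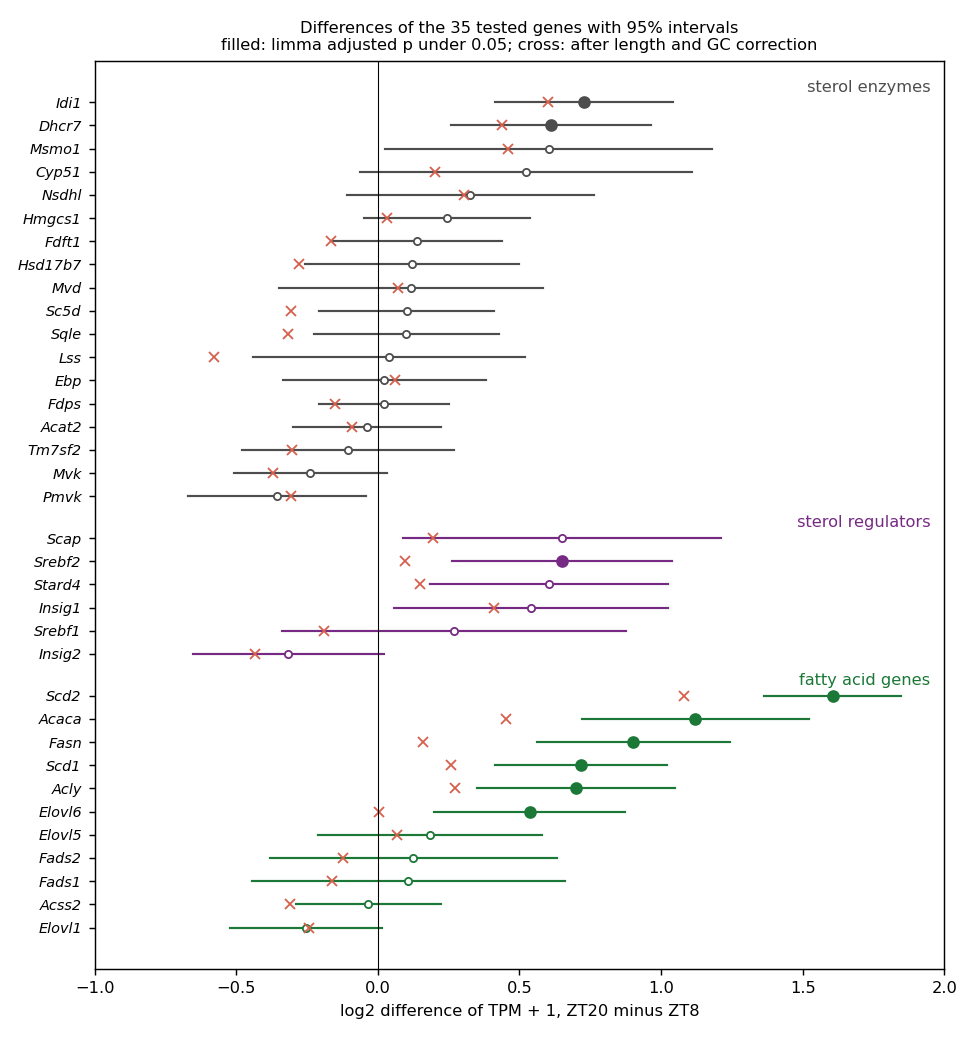
Log2 difference of TPM + 1 (horizontal axis, ZT20 minus ZT8) for the 35 tested genes, grouped as sterol enzymes, sterol regulators and fatty acid genes. Lines are 95% intervals from limma, filled points passed an adjusted p of 0.05, and crosses are the values after correction for transcript length and GC content. The 6 filled fatty acid genes lie between 0.54 and 1.61, and their crosses between 0.0054 and 1.08.

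For most sterol enzymes the ZT20 and ZT8 libraries overlapped, and 4 of the 18 had negative differences. By level, averaged over all libraries, Fdps, Acat2, Hmgcs1, Sqle and Fdft1 stood highest and Lss lowest. Acat2, the cytosolic thiolase, was at 543 to 682 TPM at ZT20 and 585 to 682 TPM at ZT8, but 50.5% of the 31-base words of its longest transcript also occur in its close copy Acat3 (0.994 to 3.10 TPM), so the division of reads between them is uncertain. Hmgcs1, the cytosolic HMG-CoA synthase, was at 462, 460, 606 and 568 TPM at ZT20 and at 452, 445 and 422 TPM at ZT8. Every ZT20 library was above every ZT8 library, by a narrow margin for ZT20 replicates 1 and 2, and the difference of 0.24 (interval −0.051 to 0.54) did not pass (limma adjusted p = 0.215). Under median-ratio scaling it was −0.0079.

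The kinases that act on mevalonate had negative differences. Mvk, mevalonate kinase, was at 99.8, 82.7, 98.9 and 84.6 TPM at ZT20 and at 106, 106 and 111 TPM at ZT8. Pmvk, phosphomevalonate kinase, was at 142, 165, 140 and 131 TPM at ZT20 and at 168, 220 and 170 TPM at ZT8. In both genes all ZT20 libraries lay below all ZT8 libraries, a pattern seen in 8.72% of all tested genes. Neither difference passed, at −0.24 and −0.36 (limma adjusted p = 0.187 and 0.108), although under median-ratio scaling they were −0.49 and −0.61 and passed (0.0316 and 0.0471). Mvd, which makes isopentenyl diphosphate, overlapped between the groups, with a difference of 0.12.

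Idi1, which interconverts isopentenyl and dimethylallyl diphosphate, rose. It was at 105, 103, 133 and 117 TPM at ZT20 and at 72.6, 73.1 and 60.3 TPM at ZT8. All 4 ZT20 libraries were above all 3 ZT8 libraries, and the difference was 0.73 with standard error 0.14 (limma adjusted p = 0.0131). After the length and GC correction it was 0.60 (adjusted p = 0.0281), under median-ratio scaling 0.48 (0.0428) and with the marker score as covariate 0.84 (0.116). Without ZT20 replicates 3 and 4 it was 0.59 (0.192). Of the 31-base words of its longest transcript 22.1% also occur in other genes, most of them in Gm13502. Its neighbour Fdps, farnesyl diphosphate synthase and the most abundant of the sterol enzymes, was at 667 to 771 TPM at ZT20 and 674 to 751 TPM at ZT8, with a difference of 0.022 (interval −0.21 to 0.25).

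The upstream sequences of Hmgcs1 and Fasn are shown because Fasn rose (values below) while Hmgcs1, a much-studied SREBP target, did not pass. Each is the 250 bases before the start in RefSeq (GRCm38.p6), 5′ to 3′ in the direction of the gene. Capitals mark matches on either strand to TCACNCCAC (a sterol regulatory element), CCAAT (bound by NF-Y, a partner of SREBPs), CACGTG (an E-box, the element of CLOCK and BMAL1) or TTATGNAA (a D-box).
Hmgcs1, chr13:119690101-119690350, plus strand: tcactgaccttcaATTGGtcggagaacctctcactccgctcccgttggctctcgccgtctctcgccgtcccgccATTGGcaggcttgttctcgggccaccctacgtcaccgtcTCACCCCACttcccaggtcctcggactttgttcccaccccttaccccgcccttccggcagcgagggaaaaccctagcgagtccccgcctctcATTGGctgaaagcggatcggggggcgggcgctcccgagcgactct
Fasn, chr11:120824548-120824797, minus strand: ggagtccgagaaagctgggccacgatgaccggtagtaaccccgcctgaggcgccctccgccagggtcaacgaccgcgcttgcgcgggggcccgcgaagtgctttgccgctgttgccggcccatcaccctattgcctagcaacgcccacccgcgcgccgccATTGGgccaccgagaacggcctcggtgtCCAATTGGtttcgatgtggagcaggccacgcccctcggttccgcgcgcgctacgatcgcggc
An upstream sequence was matched by symbol for 29 of the 36 genes, some with several starts, and a motif was counted if any start had it. Stard4, Scd1, Fads1, Fdft1, Scd2, Sqle and Fdps were not matched. CCAAT occurred in 23 of the 29, against 37.5% of all 27025 genes with such a sequence, and in 14 of 15 sterol enzymes but 5 of 9 fatty acid genes. In the Fasn sequence neighbouring matches on opposite strands overlap. TCACNCCAC was found upstream of Hmgcs1 alone, against 1.22% of all genes. CACGTG was found for 6 of the 29 (Dhcr7, Elovl5, Hsd17b7, Insig1, Sc5d and Scap), against 6.86%, and TTATGNAA for 0 of the 29, against 3.63%. These matches are letters in a short window and say nothing of binding.

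From squalene to lanosterol the levels overlapped between the groups. Fdft1, squalene synthase, was at 268, 290, 322 and 307 TPM at ZT20 and at 277, 228 and 308 TPM at ZT8, with a difference of 0.14 (interval −0.16 to 0.44). Sqle, the epoxidase that is a second point of flux control, was at 324, 331, 395 and 402 TPM at ZT20 and at 370, 280 and 368 TPM at ZT8, with a difference of 0.10 (interval −0.23 to 0.43). Both signs reversed under median-ratio scaling (−0.11 and −0.15), and correction for length and GC gave −0.17 and −0.32. The lowest library for each was ZT8 replicate 2, and without it the Sqle difference was −0.032. Fdft1 shares 16.5% of its 31-base words with Gm6781 and overlaps the abundant gene Ctsb. Lss, lanosterol synthase, was at 25.5 to 42.9 TPM and 26.2 to 34.8 TPM, with a difference of 0.039.

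Among the enzymes that turn lanosterol into cholesterol, Dhcr7 alone passed. Dhcr7, which reduces 7-dehydrocholesterol in the last step of its branch, was at 69.0, 58.5, 75.9 and 59.3 TPM at ZT20 and at 46.1, 35.6 and 46.4 TPM at ZT8. The groups did not overlap, and the difference was 0.61 with standard error 0.15 (limma adjusted p = 0.0321). It was 0.44 after the length and GC correction (0.0543), 0.37 under median-ratio scaling (0.105) and 0.57 without ZT20 replicates 3 and 4 (0.253). Leaving out ZT20 replicate 1, 3 or 4 or ZT8 replicate 3 also ended the call, with adjusted p from 0.0509 to 0.103. Cyp51, which demethylates lanosterol, was at 55.3, 57.5, 63.3 and 70.2 TPM at ZT20 and at 56.2, 25.8 and 52.4 TPM at ZT8. Its difference of 0.52 (adjusted p = 0.185) rested largely on ZT8 replicate 2, without which it was 0.17. Cyp51 overlaps Akap9.

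Msmo1, which oxidises the methyl groups at carbon 4, was the most variable sterol enzyme at ZT8. It was at 282, 315, 325 and 288 TPM at ZT20 and at 191, 313 and 130 TPM at ZT8. ZT8 replicate 2 was thus at the ZT20 level while the other ZT8 libraries were well below it, and the difference of 0.60 did not pass (adjusted p = 0.131). Without that library it was 0.93 and passed (0.00976). Nsdhl and Ebp, which lie on the X chromosome, were at 71.5 to 82.5 and 74.0 to 93.7 TPM at ZT20 and at 42.8 to 72.6 and 66.6 to 93.9 TPM at ZT8. Neither passed, with differences of 0.33 and 0.023, and ZT20 replicates 3 and 4 held both the highest Nsdhl value and the lowest Ebp values of their group. For Tm7sf2, Hsd17b7 and Sc5d the groups overlapped, with differences of −0.11, 0.12 and 0.10.

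**Figure D2:**
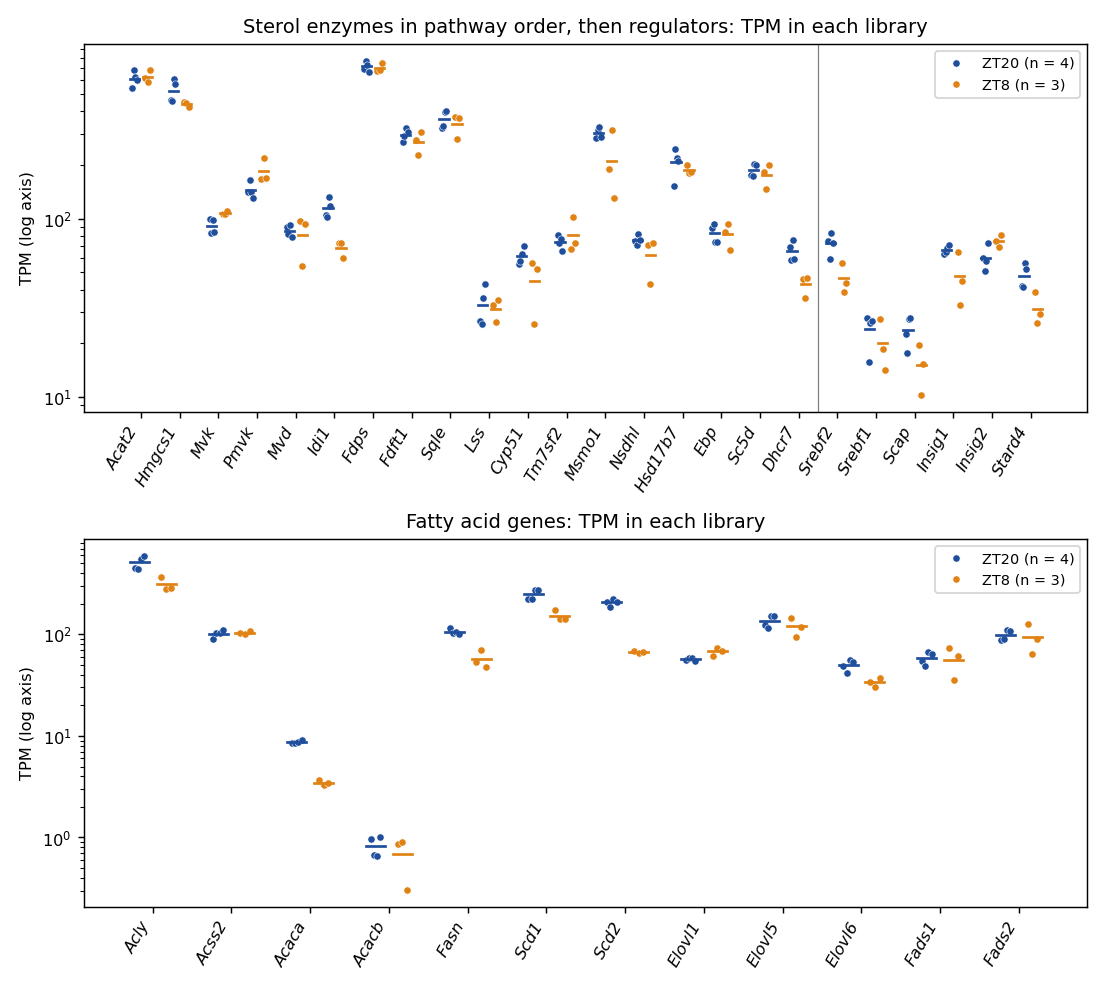
TPM in each library (vertical log axis) for the sterol enzymes in pathway order followed by the regulators (upper panel, divided by the grey line) and for the fatty acid genes (lower panel). Points are libraries at ZT20 (blue, n = 4) and ZT8 (orange, n = 3), and bars are group means. The groups separate clearly for Scd2 and Acaca, while Fdps at 667 to 771 and 674 to 751 TPM overlaps.

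Of the regulators, Srebf2 rose. Srebf2, which encodes SREBP-2, the main activator of sterol genes, was at 75.4, 59.2, 82.7 and 73.2 TPM at ZT20 and at 56.3, 38.8 and 43.5 TPM at ZT8. The groups did not overlap, though ZT20 replicate 2 and ZT8 replicate 1 were close. The difference was 0.65 with standard error 0.17 (limma adjusted p = 0.0357), but 0.096 after the length and GC correction (0.601). It was 0.40 under median-ratio scaling (0.0884) and 0.54 without ZT20 replicates 3 and 4 (0.314), and leaving out any library other than ZT20 replicate 2 or ZT8 replicate 1 ended the call. Srebf1, which encodes SREBP-1, the activator of fatty acid genes, was at 27.6, 15.8, 25.9 and 26.6 TPM at ZT20 and at 27.2, 18.4 and 14.2 TPM at ZT8. It overlapped between the groups, with a difference of 0.27 (interval −0.34 to 0.88), and its protein is also controlled by cleavage, which transcript levels do not show.

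Scap, the escort protein, was at 22.7, 17.52, 27.2 and 27.7 TPM at ZT20 and at 19.5, 10.3 and 15.3 TPM at ZT8, and its difference of 0.65 did not pass (adjusted p = 0.1004). The INSIG genes differed in sign. Insig1, itself an SREBP target, was at 63.1, 65.1, 68.3 and 71.5 TPM at ZT20 and at 65.4, 32.7 and 44.5 TPM at ZT8, with a difference of 0.54 (adjusted p = 0.111). ZT8 replicate 1 was at the ZT20 level, and without it the difference was 0.79 (0.0242). Insig2, the less sterol-responsive homologue, was at 50.7 to 73.3 TPM at ZT20 and 69.7 to 80.9 TPM at ZT8, with a difference of −0.32 (adjusted p = 0.166). Under median-ratio scaling the Insig2 difference was −0.56 and passed (0.0261). Stard4, a cytosolic sterol carrier, was at 41.6, 41.4, 56.2 and 52.2 TPM at ZT20 and at 38.7, 25.9 and 29.3 TPM at ZT8. Its groups did not overlap, and its difference of 0.60 lay just outside the threshold (adjusted p = 0.0567). Without ZT8 replicate 1 Srebf2, Insig1 and Stard4 all passed.

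The fatty acid genes that rose covered acetyl-CoA supply, carboxylation, chain synthesis, desaturation and elongation. Acly, ATP citrate lyase, which makes cytosolic acetyl-CoA from citrate, was at 453, 442, 556 and 593 TPM at ZT20 and at 372, 282 and 288 TPM at ZT8. The groups did not overlap, with a difference of 0.70 (standard error 0.15, limma adjusted p = 0.0204). Leaving out ZT20 replicate 3 or 4 or ZT8 replicate 3 gave differences of 0.66, 0.63 and 0.65 that did not pass (0.0696, 0.0639 and 0.0568). Acss2, which makes acetyl-CoA from acetate instead, was at 90.8 to 110 TPM at ZT20 and 101 to 108 TPM at ZT8, with a difference of −0.033 (interval −0.29 to 0.22).

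Acaca, acetyl-CoA carboxylase 1, which makes the malonyl-CoA used for chain synthesis, was at 8.48, 8.498, 8.75 and 9.14 TPM at ZT20 and at 3.66, 3.28 and 3.47 TPM at ZT8. The mean was 2.51 times higher at ZT20, the spread within each group was small, and the difference was 1.12 with standard error 0.18 (limma adjusted p = 0.00745). Of its 31-base words 56.8% are shared with Gm5182, which was at 0.00821 to 0.179 TPM, so the assignment of its reads is uncertain. Acacb, the mitochondrial carboxylase that restrains fatty acid oxidation, averaged below 1 TPM and was not tested, at 0.652 to 1.02 TPM at ZT20 and 0.304 to 0.894 TPM at ZT8. Fasn, fatty acid synthase, was at 115, 104, 106 and 100.4 TPM at ZT20 and at 54.0, 70.1 and 47.4 TPM at ZT8. Its groups lay well apart, with a mean 1.86 times higher at ZT20 and a difference of 0.90 (standard error 0.15, limma adjusted p = 0.00887).

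The stearoyl-CoA desaturases, which put the first double bond into saturated chains, both rose, and Scd2 had the largest difference of all members. Scd2, the form prominent in nervous tissue, was at 209, 187, 221 and 210.0 TPM at ZT20 and at 68.0, 66.3 and 67.0 TPM at ZT8. The lowest ZT20 library was far above the highest ZT8 library, the mean was 3.08 times higher, and the difference was 1.61 with standard error 0.11 (limma adjusted p = 0.00133). Scd1 was at 226, 224, 276 and 272 TPM at ZT20 and at 172, 141 and 140.3 TPM at ZT8, a difference of 0.72 with standard error 0.13 (limma adjusted p = 0.0121). The transcripts share some sequence: 8.25% of the 31-base words of Scd1 and 6.86% of those of Scd2 occur in other genes, mainly each other, Scd3 and Scd4.

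Elongases and the front-end desaturases varied by member. Elovl6, which extends the products of fatty acid synthase, was at 49.3, 41.3, 55.4 and 53.3 TPM at ZT20 and at 34.0, 30.7 and 37.2 TPM at ZT8, a difference of 0.54 with standard error 0.15 just inside the threshold (limma adjusted p = 0.0411). It missed the threshold when any single library other than ZT20 replicate 2 was left out, and under median-ratio scaling (0.149). Elovl5, which extends polyunsaturated chains, overlapped at 115 to 151 and 94.6 to 146 TPM, with a difference of 0.18. Elovl1, which makes very long saturated chains, was at 55.6, 59.1, 58.0 and 54.2 TPM at ZT20 and at 61.8, 73.6 and 68.6 TPM at ZT8. It was the only fatty acid gene whose ZT20 libraries all lay below its ZT8 libraries, with a difference of −0.25 (adjusted p = 0.162) and, under median-ratio scaling, of −0.50 (0.0422). Fads1 and Fads2, the delta-5 and delta-6 desaturases, spanned 48.4 to 67.4 and 87.2 to 112 TPM at ZT20 and 35.5 to 72.7 and 63.7 to 127 TPM at ZT8. Their ZT20 ranges lay within their ZT8 ranges, and the differences of 0.11 and 0.12 changed sign under median-ratio scaling (−0.14 and −0.12) and without ZT8 replicate 2 (−0.19 and −0.13).

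Ratios of related genes within a library do not depend on the scaling between libraries, but they keep any trend with transcript length. Scd2 over Scd1 was 0.926, 0.833, 0.801 and 0.773 at ZT20 and 0.395, 0.469 and 0.477 at ZT8. Scd2 therefore differed more than Scd1, and the groups did not overlap. Insig1 over Insig2 was 1.05, 1.28, 1.18 and 0.976 at ZT20 and 0.878, 0.470 and 0.550 at ZT8, also without overlap. Elovl6 over Elovl5 was 0.353 to 0.398 and 0.234 to 0.324, and Idi1 over Fdps was 0.133 to 0.182 and 0.0803 to 0.108, both without overlap. Elovl6 and Elovl5 differ in length (5951 and 2782 nt), and after the length and GC correction their differences were 0.0054 and 0.067. Fads1 over Fads2, by contrast, was 0.591 ± 0.035 (SD, n = 4) and 0.599 ± 0.060 (SD, n = 3), although the SD of each gene at ZT8 was 19.0 and 31.8 TPM around means of 56.3 and 93.9 TPM. Srebf2 over Srebf1 overlapped, at 2.74 to 3.76 and 2.07 to 3.07. Acaca over Acacb overlapped too, at 8.85 to 13.4 and 3.67 to 11.4, as did Idi1 over Mvd, at 1.17 to 1.49 and 0.649 to 1.35. Fasn over Acss2 did not overlap, at 0.915 to 1.27 and 0.440 to 0.691. The ratios of Idi1 to Fdps and to Mvd and of Fasn to Acss2 were chosen after the values were seen.

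**Figure D3:**
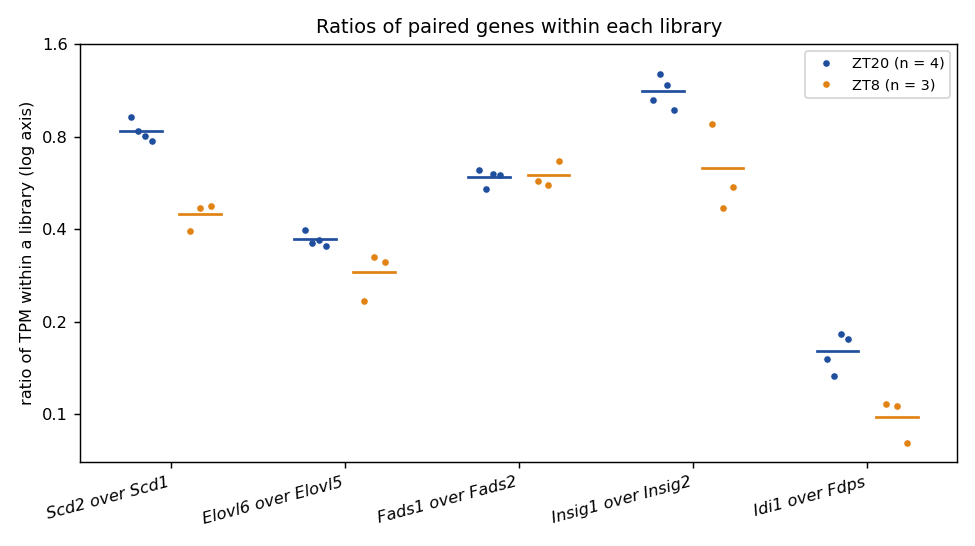
Ratio of the TPM of related genes within each library (vertical log axis), ZT20 in blue (n = 4) and ZT8 in orange (n = 3), with bars for group means. Scd2 over Scd1 is 0.773 to 0.926 at ZT20 and 0.395 to 0.477 at ZT8, while Fads1 over Fads2 overlaps.

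Transcript length moved with these results. Across the tested genes with a known length, divided into 10 bins of equal number by their longest annotated transcript, the median difference was −0.027 in the shortest bin and 0.69 in the longest, and the share called higher was 6.37% and 36.5%. All 6 fatty acid genes that rose have transcripts of 4426 to 10050 nt, and the 5 tested ones that did not pass have 1811 to 3609 nt. Acaca (9513 nt) and Fasn (10050 nt) belong to the longest bin, and a loess correction of each library for length and GC content gave them differences of 0.45 (limma adjusted p = 0.122) and 0.16 (0.602). Acly and Scd1 (4426 and 4832 nt) were then at 0.27 and 0.26 (0.141 and 0.119), and Elovl6 (5951 nt) at 0.0054 (0.984). Scd2 (5455 nt) was at 1.08 with standard error 0.092 and still passed (0.00363), in a bin whose median difference was 0.56.

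Among the sterol enzymes some lay near the trend and others away from it. Pmvk, the shortest at 1194 nt, had the lowest difference (−0.36), and Mvk (2380 nt) and Acat2 (2250 nt) were at −0.24 and −0.038, while Cyp51 (3931 nt) was at 0.52. Lss (6992 nt), Sc5d (4787 nt), Hsd17b7 (4612 nt) and Sqle (4467 nt) have lengths in the range of the fatty acid genes that rose. Their differences were 0.039, 0.10, 0.12 and 0.10, below the medians of their bins (0.69 for Lss and 0.47 for the others). All lengths given are of the longest annotated transcript, which may not be the one expressed here. Idi1 (3027 nt) and Dhcr7 (2815 nt), which rose, fall in a bin with a median of 0.17 in which 5.42% of genes were called higher. Of the 35 tested members 18 lay above the median of their bin, 6 of 11 among the fatty acid genes and 8 of 18 among the sterol enzymes.

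**Figure D4:**
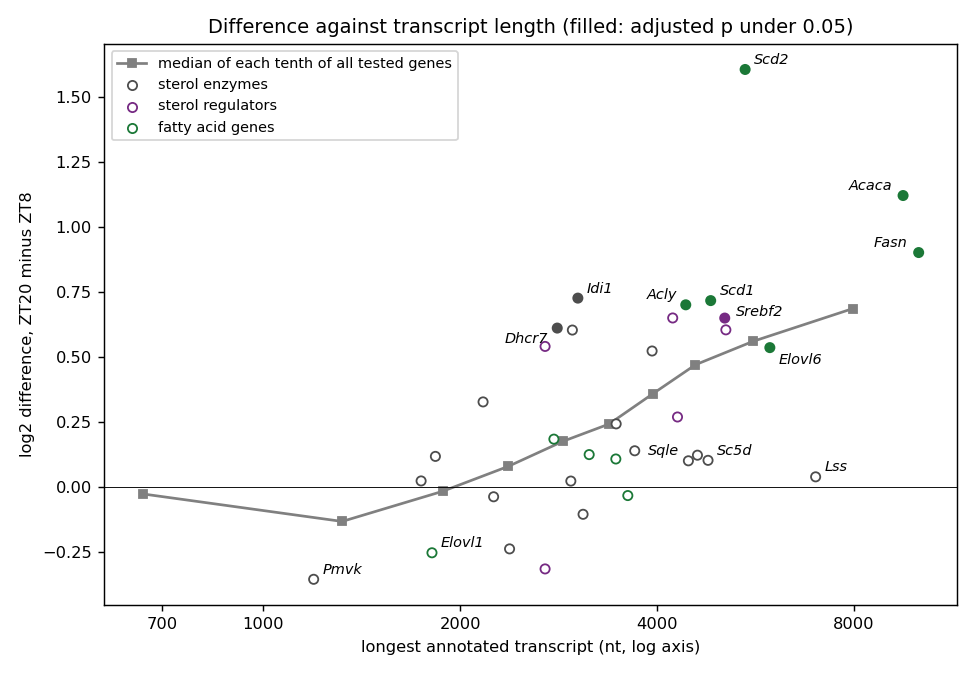
Log2 difference (ZT20 minus ZT8) against the longest annotated transcript (log axis, nt) for the 35 tested genes, filled where the adjusted p was under 0.05. Grey squares are the medians of the bins of all tested genes by length. Scd2 stands at 1.61 in a bin with a median of 0.56, and Lss at 0.039 in the longest bin, with a median of 0.69.

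The marker score as covariate, which left 0.716% of all genes past the threshold, left Scd2 alone of the members (1.55, limma adjusted p = 0.0285). Its sizes for Acaca (1.12), Fasn (1.01), Acly (0.77) and Scd1 (0.77) were no smaller than without it, with adjusted p from 0.0948 to 0.174, and Idi1 was at 0.84 (0.116). The other members that rose were smaller with it: Dhcr7 was at 0.32 (0.478), Srebf2 at 0.455 (0.424) and Elovl6 at 0.39 (0.432). The score itself was 4.977 to 5.459 at ZT20 and 4.534 to 4.939 at ZT8, without overlap. This fit therefore cannot divide cell composition from the time of day, whether a size held or shrank. Without ZT20 replicates 3 and 4 the differences were 1.54 for Scd2 (0.0617), 1.09 for Acaca (0.178), 0.95 for Fasn (0.148), 0.58 for Scd1 (0.188) and 0.52 for Acly (0.237).

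Summed levels in TPM separated the times for the fatty acid genes and not for the sterol enzymes. The 12 fatty acid genes summed to 1473, 1421, 1716 and 1727 TPM at ZT20 and to 1214, 963 and 1031 TPM at ZT8, without overlap. The 18 sterol enzymes summed to 3732, 4080, 4298 and 4038 TPM at ZT20 and to 3764, 3643 and 3824 TPM at ZT8, with overlap. Of all 36 members, ZT8 replicate 2 held the lowest value for 18, and ZT20 replicates 3 and 4 held the highest for 12 and 10.

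Other genes of lipid handling were read from pathway lists, beside 16.4% called, 12.8% higher, 3.61% lower and a median difference of 0.23 over all tested genes. Of 19 tested genes of sterol uptake, storage and efflux, 3 rose and 1 fell (21.1% called), with a median difference of 0.077. The shares called in the next lists, 11.1% and 4.17%, were below that of all tested genes. Abcg1 and Abca1, the transporters that export cholesterol, were at 53.4 to 115 and 13.4 to 21.03 TPM at ZT20 and at 19.1 to 33.7 and 5.35 to 7.40 TPM at ZT8, differences of 1.42 and 1.29 (limma adjusted p = 0.0174 and 0.00807). Gramd1b, which moves cholesterol from the plasma membrane, differed by 0.94 (0.0177), and Npc2, a lysosomal cholesterol carrier, by −0.41 (0.0329). Among 18 genes of SREBP processing 1 rose and 1 fell: Sp1, a factor that acts with SREBPs, at 1.09 (0.0445) from levels of 1.73 to 2.37 and 0 to 1.05 TPM, and Pgrmc1, a haem-binding partner of sterol enzymes, at −0.39 (0.0275). Of 24 tested genes of fatty acid elongation and activation only Acsl4, which activates polyunsaturated fatty acids, passed. It was at 36.7, 42.9, 41.6 and 42.0 TPM at ZT20 and at 16.2, 14.3 and 12.5 TPM at ZT8, far apart, with a difference of 1.45 and standard error 0.15 (limma adjusted p = 0.00205). The longest transcripts of Abcg1, Abca1, Gramd1b, Sp1 and Acsl4 are 5832, 10262, 7488, 7754 and 5280 nt, in the range of the fatty acid genes that rose or of the longest bin.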

How the data were processed

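RNA was sequenced from 7 samples of injured mouse dorsal root ganglia enriched for neurons (ZT20, n = 4; ZT8, n = 3; groups from the titles), with libraries from a low-input kit, per the labels' protocols. The authors deposited 1 table of TPM, 1 column per sample. The submitters' processing notes name FastQC 0.11.9, Trim Galore 0.6.6, Salmon 1.6.0, DESeq2 1.34.0 and the build GRCm39. The annotation release, any bias correction and the use of strand are not given in the sources used here. Because 72 h separate injury from dissection, both share a ZT and cannot be told apart. Identifiers of the libraries are numbers at ZT20 and letters at ZT8; a batch behind them could not be separated from the group.

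The 14800 genes (of 54309) averaging 1 TPM or more were fitted as log2(TPM + 1) with limma 3.58.1 in R 4.3.3 (intensity trend, no covariates, two-sided, Benjamini-Hochberg over all of them). On simulated data for 14800 genes with 200 changed by 1.5, the fit called 74% of them, 2.63% of its calls were false, and it called 0 when none was changed. The simulated noise was independent between genes and held no trend with transcript length and no shift between libraries. Of the members only Scd2 (1.61) differed by more than 1.5. These rates therefore need not hold for the real libraries or for smaller differences. Transcript lengths, GC content, overlaps and shared 31-base words came from GENCODE M21 (lengths for 99.6% of tested genes), an older build than the table's, and no coordinates were carried over from it. Upstream sequences came from RefSeq. The length and GC correction removed a loess trend (span 0.3) from each library.

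The members and lists were chosen with earlier results of these data known. Every member is accounted for, values in every sample are given for those that passed and for a fixed set of others, and from each list the called genes with the 3 largest differences in each direction are named. Msmo1, Mvk, Pmvk, Stard4, Insig2, Elovl1, Nsdhl and Ebp were described after their values were seen. Some genes of the lists are not reported here.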

Additional observations from a re-analysis of the deposited data

Results flagged for a closer look

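The ZT20 replicate 2 value of Srebf1 was 15.8 TPM, against 25.9 to 27.6 TPM for its group, and the gap to the nearest library took a share of 0.859 of the whole range. Among 36 members checked in this way in the ZT20 group, 1 had such a far library, and chance gives about 1.8. Without that library the Srebf1 difference was 0.45 (limma adjusted p = 0.230), and with it 0.27.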

How the results depend on the processing

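All alternatives were run on the whole table, and the cause of a change was not tested unless a value shows it. Leaving out 1 library at a time gave 1 to 3 sterol enzymes, 0 to 3 regulators and 4 to 6 fatty acid genes past the threshold, with medians of 0.047 to 0.18 for sterol enzymes and 0.47 to 0.62 for fatty acid genes, and 723 to 3047 of all genes. The lowest count over all genes was without ZT20 replicate 3. A pseudocount of 0.1 and removal of mitochondrial genes moved no count of members. Counts of sterol enzymes, regulators and fatty acid genes were 1, 0 and 4 without a filter and 1, 0 and 5 without the intensity trend. A minimum mean of 5 TPM, array weights and an adjusted threshold of 0.10 each gave 2 regulators. Quantile normalization gave 1 sterol enzyme and a fatty acid median of 0.37. Median-ratio scaling gave medians of −0.14 (sterol) and 0.29 (fatty acid). The length and GC correction left 1, 0 and 1 genes, with medians of −0.12 and 0.067. The marker score left 0, 0 and 1, and without ZT20 replicates 3 and 4 the counts were 0, 0 and 0.

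Over all genes 1178 passed without a filter, 1307 after the length and GC correction, 106 with the marker score, 3899 with array weights and 4079 at the threshold of 0.10. Replicate numbers occur in both groups but nothing ties them to a shared animal or day, and deviations of same-numbered libraries correlated at −0.014, 0.15 and 0.083. With the replicate block 1174 of all genes, 1 sterol enzyme (Dhcr7), 0 regulators and 3 fatty acid genes (Fasn, Scd1, Scd2) passed, and with the block and the length and GC correction 604, 0, 0 and 1, with medians of −0.084 and 0.026. In that fit Fads1, Fads2, Fdft1, Sqle and Srebf1 were at −0.19, −0.14, −0.16, −0.34 and −0.22.

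Signs also reversed for members that did not pass. Fads1 was at −0.14 (median-ratio scaling), −0.011 (quantile), −0.16 (length and GC), −0.18 (marker score), −0.049 (array weights) and −0.074 (without ZT20 replicates 3 and 4), and from −0.19 to 0.32 with 1 library left out. Fads2 was at −0.12, −0.12, −0.00019, −0.029 and −0.032 under the same settings other than quantile normalization, and from −0.13 to 0.37 with 1 library left out. Hmgcs1 was at −0.0079 and Fdft1 at −0.11 under median-ratio scaling, and Fdft1 at −0.17 after the length and GC correction. Sqle was at −0.15, −0.32 and −0.041 under median-ratio scaling, the length and GC correction and without ZT20 replicates 3 and 4, and from −0.032 to 0.17 with 1 library left out. The lowest of these ranges were without ZT8 replicate 2. Srebf1 was at −0.19 after the length and GC correction. Depth is unknown from TPM, so no limit for low values such as Acacb can be given.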

Other observations

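The isoprenoid branch, which uses farnesyl and geranylgeranyl diphosphate for protein prenylation, dolichol and coenzyme Q, had 1 gene higher and 0 lower of 12 tested (8.33% called), with a median difference of 0.016, below the 16.4% called and the median of 0.23 over all tested genes. Nus1, a subunit of the enzyme that makes dolichol, had 13.99, 16.1, 17.6 and 18.3 TPM at ZT20 against 10.1, 7.83 and 10.1 TPM at ZT8. All ZT20 libraries were above all ZT8 libraries, a pattern found in 24.5% of all tested genes, and the difference was 0.76 (limma adjusted p = 0.0243). The longest transcript of Nus1 has 4605 nt, in a length bin with a median difference of 0.47 in which 19.8% of genes were called higher.

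The 20 tested genes of fatty acid oxidation had a median difference of −0.043, beside 0.23 over all tested genes. Echs1, a mitochondrial enoyl-CoA hydratase, was at 55.8, 56.1, 57.6 and 58.9 TPM at ZT20 and at 86.1, 83.2 and 84.3 TPM at ZT8, a difference of −0.56 (limma adjusted p = 0.0125). The libraries of each group lay close together for Echs1.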
